A study of Mus musculus with 45 samples.

Results

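Follicular B cells held for 44 h with an antibody against surface IgM on OP9-DL1 stroma were compared with the same kind of culture at 20 h. The comparison rested on 6 of 45 libraries, 3 at 44 h (replicates 1 to 3) and 3 at 20 h, taken by the stimulus, stroma and time in their labels, with all 30317 genes of the deposited table read and 15614 tested. The B cells came from spleens of B6.Blimp1GFP/+ mice, which carry a green fluorescent reporter in 1 allele of the plasma cell regulator gene Blimp1 (Prdm1), so every culture compared here shared that genotype. They were purified, plated on a confluent layer, given anti-IgM F(ab'2) at 10 µg/mL, sorted by flow cytometry into lysis reagent and sequenced from poly(A) RNA as bulk populations. OP9 is a mouse bone marrow stromal line, and OP9-DL1 is OP9 made to express the Notch ligand Delta-like 1. Cultures of the same kind at 68 h, of LPS on OP9 at 44 and 20 h, and of anti-IgM on OP9 at 44 and 20 h (3 libraries each) served for comparison. The labels do not say whether replicates came from separate mice or wells. A p-value here therefore sets a difference against the spread between replicate libraries, which may be technical.

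Anti-IgM F(ab'2) crosslinks the B cell receptor, which in a resting B cell sets off kinase and calcium signalling, transcription of immediate early genes and Myc, cell growth, and then entry into the division cycle. Dividing cells first make the enzymes that copy DNA and later the spindle, kinetochore and cytokinesis proteins of mitosis. B cells that turn into plasma cells widen their endoplasmic reticulum (ER) under Xbp1 and make J chain. J chain is the small protein that links IgM and IgA units before they leave the cell.

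Levels are given as scaled TPM, the authors' TPM (transcript abundance relative to all transcripts of a library) divided by a size factor that lines up the libraries, and fold changes are differences of log2(scaled TPM + 1) ± SE. This scale understates the change of genes with low levels. A gene was called where limma's adjusted p (Benjamini-Hochberg over 15614 genes) was below 0.05. The libraries held 6420000, 3560000 and 16300000 reads at 44 h and 5530000, 10400000 and 13400000 reads at 20 h, as solved from the lowest values of the authors' second table. Of the 45 libraries, 10 had 12400 to 85300 TPM of Actb, against 217 to 2970 TPM in the rest, and none of the 6 was among the 10. Since all 45 libraries share the estimate of the spread, counts are given with and without those 10. The B cell markers Ms4a1, Cd79a, Cd79b, Pax5 and Cd74 were above 1 TPM in all 6 libraries, and so were the follicular markers Fcer2a, Cr2 and Ighd. Stromal transcripts were present too, at a sum over 28 markers of 204 to 381 TPM at 44 h and 167 to 712 TPM at 20 h, with none of the 28 at 0 in all 6. Myeloid markers summed to 336 to 377 TPM at 44 h and 263 to 308 TPM at 20 h, mostly Cst3, and 5 of 19 (Lyz1, S100a8, S100a9, Elane and Ly6g) were at 0 in all 6. T and NK markers summed to 352 to 371 TPM at 44 h and 267 to 361 TPM at 20 h, mostly Lck and Cd2, with Ncr1 and Gzma at 0 in all 6. In bulk RNA, fewer cells of a type and less RNA per cell cannot be told apart.

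The promoters shown first belong to genes that carry the comparison. Kif2c, a kinesin that takes microtubules apart at centromeres, and Stil, a centriole duplication protein, are 2 of the called increases, and Igj (Jchain), the J chain gene, is the largest called decrease. Ccnb2, a B-type cyclin of mitosis, and Hspa5, the ER chaperone BiP, were added after their values were seen, as members of the mitosis and ER lists. Each stretch runs from 250 bases before to 50 bases after the start of transcription in RefSeq's table (GRCm38.p6), 5′ to 3′ along the gene, and capitals mark the motifs searched on both strands. The motifs were CACGTG (the E-box), CCAAT (the box bound by NF-Y), TTTGAA (the cell cycle homology region), TTTCCCGC and TTTGGCGC (E2F-like), and, added after the values were seen, the ER stress element (a CCAAT box followed 9 bases on by CCACG), which contains a CCAAT by its make-up. No matches of the first 5 motifs overlapped in these stretches.
Kif2c, chr4:117178723-117179022, minus strand: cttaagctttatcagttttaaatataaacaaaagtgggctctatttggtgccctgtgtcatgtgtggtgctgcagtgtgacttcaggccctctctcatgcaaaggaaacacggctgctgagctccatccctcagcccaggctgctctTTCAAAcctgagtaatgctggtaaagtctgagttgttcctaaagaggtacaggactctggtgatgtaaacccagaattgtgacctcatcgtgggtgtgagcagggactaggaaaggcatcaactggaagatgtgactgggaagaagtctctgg
Stil, chr4:114999868-115000167, plus strand: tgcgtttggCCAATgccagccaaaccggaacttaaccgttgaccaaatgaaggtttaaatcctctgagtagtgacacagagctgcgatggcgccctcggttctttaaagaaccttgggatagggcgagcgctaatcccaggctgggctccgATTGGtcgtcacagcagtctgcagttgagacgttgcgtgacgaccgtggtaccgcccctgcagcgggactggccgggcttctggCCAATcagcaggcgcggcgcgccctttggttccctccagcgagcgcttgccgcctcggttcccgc
Igj, chr5:88527848-88528147, minus strand: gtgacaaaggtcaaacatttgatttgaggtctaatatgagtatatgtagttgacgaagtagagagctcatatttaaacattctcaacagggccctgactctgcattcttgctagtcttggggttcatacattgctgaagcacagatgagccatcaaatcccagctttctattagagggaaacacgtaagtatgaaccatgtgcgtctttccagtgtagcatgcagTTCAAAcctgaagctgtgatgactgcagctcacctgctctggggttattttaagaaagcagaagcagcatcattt
Ccnb2, chr9:70421505-70421804, minus strand: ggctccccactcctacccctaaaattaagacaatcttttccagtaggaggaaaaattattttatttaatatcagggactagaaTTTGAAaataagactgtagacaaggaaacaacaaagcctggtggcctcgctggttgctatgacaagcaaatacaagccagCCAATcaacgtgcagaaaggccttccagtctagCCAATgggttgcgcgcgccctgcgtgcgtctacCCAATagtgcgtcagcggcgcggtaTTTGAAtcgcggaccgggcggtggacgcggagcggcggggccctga
Hspa5, chr2:34771840-34772139, plus strand: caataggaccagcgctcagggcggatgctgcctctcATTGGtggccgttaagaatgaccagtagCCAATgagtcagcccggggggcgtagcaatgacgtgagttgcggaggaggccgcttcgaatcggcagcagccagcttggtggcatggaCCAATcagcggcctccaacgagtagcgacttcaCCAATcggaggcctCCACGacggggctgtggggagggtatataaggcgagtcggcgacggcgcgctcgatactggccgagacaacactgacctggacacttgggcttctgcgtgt
The Kif2c stretch held 1 TTTGAA, read on the other strand as TTCAAA, and it lies inside the gene as RefSeq draws it (chr4:117159633-117182624). Stil held 3 CCAAT and Igj held 1 TTTGAA. Ccnb2 held 3 CCAAT and 2 TTTGAA, and Hspa5 held 4 CCAAT, with 1 ER stress element. Over the lists, 33 of 40 mitosis genes and 30 of 36 ER genes had a promoter in the table. CCAAT was in 72.7% of the mitosis promoters and 80.0% of the ER promoters, against 37.4% of all 32851 promoters of this length. TTTGAA was in 72.7% of the mitosis promoters and 3.33% of the ER promoters, against 17.9% of all. Both together, a combination looked for after the values were seen, were in 20 of 33 mitosis promoters (60.6%), against 6.95% of all promoters. The ER stress element was in 8 of 30 ER promoters (26.7%) and in none of the 33 mitosis promoters, against 0.119% of all. CACGTG was in 6.06% of the mitosis promoters and 10.0% of the ER promoters, against 7.15% of all. TTTCCCGC was in 0 promoters of either list, against 1.07% of all. TTTGGCGC was in 0 mitosis promoters and 3.33% of the ER promoters, against 0.514% of all. The lists hold 1 promoter a gene, while the 32851 include several for some genes. With 1 promoter a gene (27025), the shares of all were 37.9% for CCAAT, 18.1% for TTTGAA and 7.12% for both together. They were 0.13% for the ER stress element, 7.24% for CACGTG, 1.11% for TTTCCCGC and 0.537% for TTTGGCGC. These are matches of letters in a window, with no test, and they say nothing about which factor was bound.

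At 44 h the division genes Kif2c, Stmn1 and Stil were higher than at 20 h and the J chain gene Igj was far lower. In the fit of all 45 libraries limma called 9 of 15614 genes (0.0576%), 5 higher (0.032%) and 4 lower (0.0256%) at 44 h. An unadjusted limma p below 0.05 was found for 732 of the 15614, no more than evenly spread p-values would give. Counts of list members at that threshold, given below, are to be read beside this share. Without the 10 libraries of high Actb, 163 genes were called (1.04%), 111 higher (0.711%) and 52 lower (0.333%), all 9 among them. The 6 libraries alone gave 153 (0.98%), 106 higher (0.679%) and 47 lower (0.301%), of which 69 were also among the 163. Leaving out 1 of the 6 libraries moved the count of 9 by over 1.5 times in 4 cases, to 5 without 44 h replicate 1, 4 without 44 h replicate 2, 4 without 20 h replicate 2 and 5 without 20 h replicate 3. In the fit without the 10 libraries the count of 163 fell to 81, 69 and 99 without 44 h replicates 1, 2 and 3, and to 80 and 95 without 20 h replicates 2 and 3.

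Kif2c had 44.8, 39.7 and 39.2 scaled TPM at 44 h, against 14.8, 14.9 and 14.6 scaled TPM at 20 h. The groups lay far apart and each was tight, and Kif2c rose by a log2 fold change of 1.42 ± 0.23 (adjusted p = 0.00212 in limma). Stmn1, the microtubule-destabilising protein stathmin (chr4:134468320-134473843), had 704, 749 and 798 scaled TPM at 44 h, against 363, 303 and 274 scaled TPM at 20 h. It was the most abundant called gene and rose by 1.27 ± 0.25 (adjusted p = 0.0288). Stil had 12.2, 12.7 and 11.2 scaled TPM at 44 h, against 3.22, 4.15 and 4.34 scaled TPM at 20 h, without overlap, and rose by 1.42 ± 0.29 with an adjusted p of 0.0498, at the edge of the threshold. The other 2 increases were in genes outside the division machinery. Lpar3, a receptor for lysophosphatidic acid (chr3:146220961-146286214), had 15, 14.9 and 15.4 scaled TPM at 44 h, against 0.345, 4.56 and 4.42 scaled TPM at 20 h. Its 20 h replicate 1 was far below the other 20 h libraries, and Lpar3 rose by 2.23 ± 0.33 (adjusted p = 0.000872). Lad1, which encodes the filament-anchoring protein ladinin (chr1:135818598-135833341), had 6.7, 5.1 and 3.57 scaled TPM at 44 h, against 0.555, 0.725 and 0.574 scaled TPM at 20 h. Lad1 rose by 1.89 ± 0.36 (adjusted p = 0.0251).

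Igj (chr5:88519809-88527897) had 13, 12.2 and 15.6 scaled TPM at 44 h, against 307, 186 and 226 scaled TPM at 20 h. Every 44 h library was more than 10-fold below every 20 h library, and Igj fell by 4.02 on the log2 scale (SE 0.5, adjusted p = 3.42e-05). Rgcc, a regulator of the cell cycle first found as a complement response gene (chr14:79288750-79301635), had 10.8, 7.76 and 6.48 scaled TPM at 44 h, against 37.3, 21.6 and 26.4 scaled TPM at 20 h. Rgcc fell by 1.65 (SE 0.31, adjusted p = 0.0251). Bhlha15, the secretory cell transcription factor MIST1 (chr5:144190286-144194441), had 0, 0.089 and 0.0399 scaled TPM at 44 h, against 2.93, 1.24 and 1.11 scaled TPM at 20 h. Its level was low in both groups, it was near absent at 44 h, and it fell by 1.35 (SE 0.26, adjusted p = 0.0251). Kcnh4, a voltage-gated potassium channel (chr11:100740378-100760115), had 2.29, 0.412 and 0.462 scaled TPM at 44 h, against 5.44, 3.39 and 2.58 scaled TPM at 20 h. Kcnh4 fell by 1.3 (SE 0.26, adjusted p = 0.0288). Its 44 h replicate 1, at 2.29, came close to the lowest 20 h library.

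**Figure D1:**
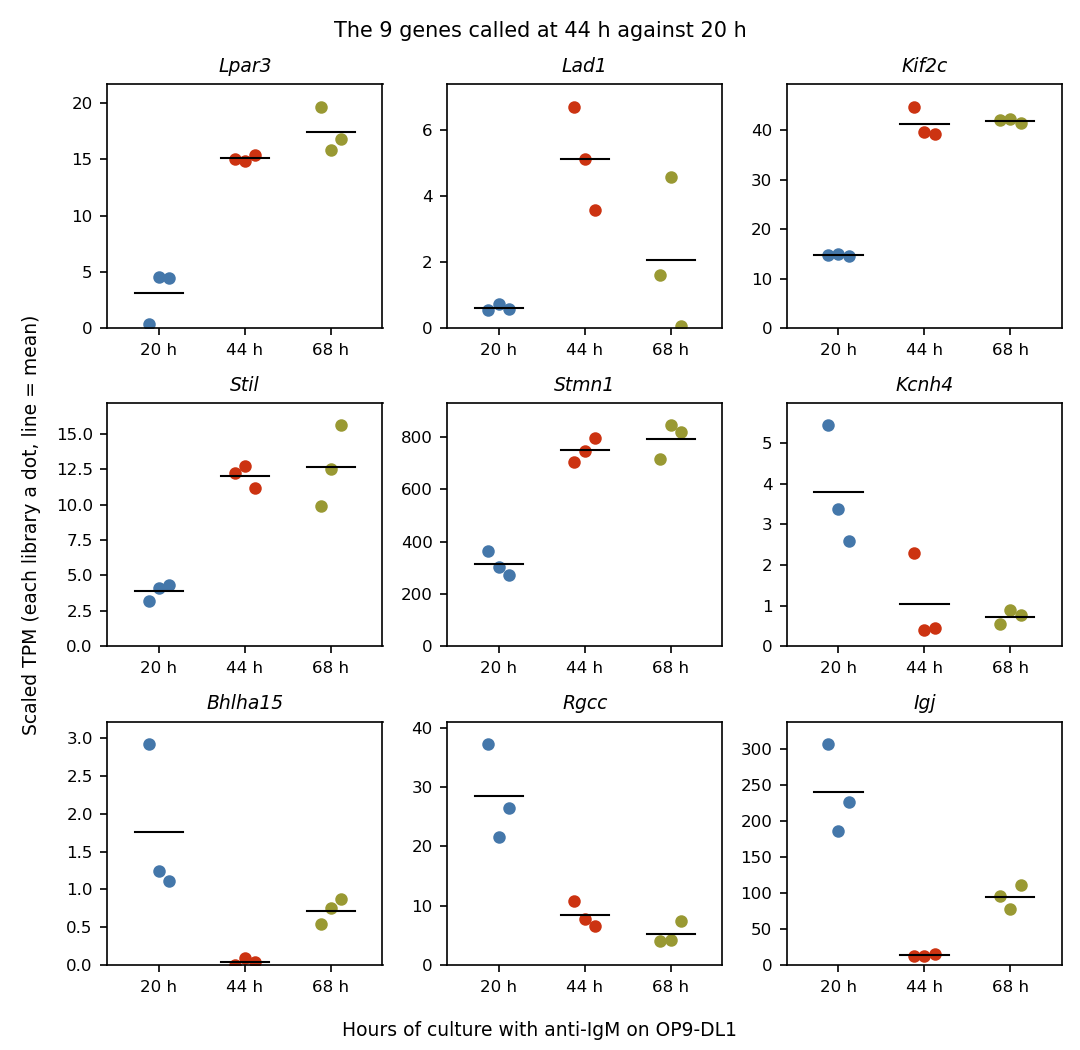
Scaled TPM (y axis, linear from 0) of the 9 called genes in each library of anti-IgM cultures on OP9-DL1 at 20, 44 and 68 h (x axis). Dots are libraries and lines the means of 3, and at 44 h the dots of all 9 genes lie apart from those at 20 h, with Igj between 12.2 and 15.6 at 44 h against 186 to 307 at 20 h.

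Igj was called in all 23 other settings tried, with an adjusted p between 2.68e-05 and 0.00918. Several of these settings left out the 10 libraries of high Actb, and most of those were added after the values were seen. A tally over settings therefore counts that exclusion more than once, here and below. Kif2c was called in 21 (adjusted p 0.000236 to 0.421) and Lpar3 in 20 (0.000183 to 0.568), both in every run without 1 library. The other calls depended on single libraries in the 45-library fit. Stil was lost without any 1 of the 6 libraries, and Stmn1 without any 1 but 20 h replicate 1. Lad1 was lost without any 1 but 44 h replicate 3, and Bhlha15 without any 1 but 20 h replicate 3. Rgcc was lost without 44 h replicate 2 or 3 or 20 h replicate 1 or 3, and Kcnh4 without 44 h replicate 2 or 3 or 20 h replicate 1 or 2. Over all settings the highest adjusted p was 1 for Lad1 and Kcnh4, 0.596 for Stmn1, 0.441 for Stil, 0.38 for Rgcc and 0.171 for Bhlha15. With the 6 libraries alone limma did not call Lpar3 (adjusted p = 0.136), Kcnh4 (0.22), Bhlha15 (0.0942) or Rgcc (0.0536).

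Mitosis genes were higher at 44 h almost throughout. Of 40 tested, 39 had all 3 libraries at 44 h above all 3 at 20 h, and none lay below, where over all genes the shares were 10.4% above and 10.3% below. The median log2 fold change of the list was 1.07, where that of all genes was 0, and it was 1.09 to 1.13 under the other scalings, which left the median of all genes within 0.05 of 0. Their summed level was 4460, 4170 and 4310 scaled TPM at 44 h, against 2170, 1850 and 2100 scaled TPM at 20 h. In the 45-library fit only Kif2c of the list was called, with 35 of the 40 at an unadjusted p below 0.05 and higher, while 20 were called without the 10 libraries of high Actb and 23 in the 6 libraries alone, all higher.

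Among the motor proteins, Kif23, a kinesin of the midzone needed for cytokinesis, had 35.4, 25.3 and 22.7 scaled TPM at 44 h, against 11.7, 6.78 and 7.42 scaled TPM at 20 h. Its log2 fold change of 1.59 ± 0.36 was the largest of the list, with an adjusted p of 0.0855 in the 45-library fit and 0.00975 without the 10 libraries (0.00975 to 0.673 over 23 settings, called in 6). Kif20a, another cytokinesis kinesin, had 92.8, 90.4 and 94.3 scaled TPM at 44 h, against 35.4, 32.7 and 44.6 scaled TPM at 20 h. It rose without the 10 libraries, by 1.29 ± 0.21 (adjusted p = 0.00115 there, 0.536 in the 45-library fit and called in 9 of 23 settings). Tpx2, which activates Aurora A on the spindle, had 88.4, 76.4 and 74 scaled TPM at 44 h, against 22.8, 28 and 31.9 scaled TPM at 20 h. Without the 10 libraries Tpx2 rose by 1.5 ± 0.33 (adjusted p = 0.0212 there, 0.0895 in the 45-library fit and called in 4 of 23 settings). Kif11, the kinesin that pushes spindle poles apart, had 57, 57.1 and 56.5 scaled TPM at 44 h, against 29, 19.2 and 23.7 scaled TPM at 20 h. Kif11 rose in the same fit (1.23 ± 0.19, adjusted p = 0.000955 there and 0.181 in the 45-library fit).

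The mitotic kinases and cyclins showed the same separation. Plk1 had 140, 139 and 156 scaled TPM at 44 h, against 53.8, 59.4 and 82.2 scaled TPM at 20 h (1.16 ± 0.22, adjusted p = 0.00692 without the 10 libraries and 0.874 in the 45-library fit). Aurka, the spindle pole kinase, had 153, 134 and 134 scaled TPM at 44 h, against 60.9, 64.8 and 71 scaled TPM at 20 h (1.09 ± 0.18, adjusted p = 0.00156 without the 10 libraries and 0.778 in the 45-library fit). Ccnb2, whose promoter is printed above, had 180, 185 and 203 scaled TPM at 44 h, against 91, 67.5 and 89.1 scaled TPM at 20 h (1.2 ± 0.16, adjusted p = 0.000236 without the 10 libraries and 0.0855 in the 45-library fit). These 3 rose without the 10 libraries, and Cdk1 and Ccnb1 did not pass that fit. Cdk1, the kinase that B-type cyclins activate, had 291, 224 and 241 scaled TPM at 44 h, against 133, 123 and 132 scaled TPM at 20 h (0.95 ± 0.44, adjusted p = 0.435 in that fit and 0.0378 in the 6 libraries alone). Ccnb1 had 339, 313 and 326 scaled TPM at 44 h, against 153, 137 and 202 scaled TPM at 20 h (1.01 ± 0.28, adjusted p = 0.0734 in that fit and 0.0477 in the 6 libraries alone). Both had groups without overlap.

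Proteins of the chromosomes gave the same picture. Birc5, the survivin subunit of the chromosomal passenger complex, had 425, 387 and 426 scaled TPM at 44 h, against 183, 173 and 179 scaled TPM at 20 h. Birc5 rose without the 10 libraries (1.21 ± 0.22, adjusted p = 0.0051 there and 0.149 in the 45-library fit). Cenpa, the histone variant of centromeres, had 329, 306 and 342 scaled TPM at 44 h, against 195, 123 and 123 scaled TPM at 20 h. Cenpa rose in that fit too (1.18 ± 0.26, adjusted p = 0.0212 there and 0.701 in the 45-library fit). Top2a, the topoisomerase that untangles sister DNA, had 152, 138 and 127 scaled TPM at 44 h, against 76.4, 60.9 and 61.9 scaled TPM at 20 h (1.06 ± 0.15, adjusted p = 0.000333 in that fit and 1 in the 45-library fit). In each of the 3 the gap between the times was wider than the range within either time. Mki67, which coats mitotic chromosomes and is the common proliferation marker, had 37, 29.2 and 27.4 scaled TPM at 44 h, against 17.5, 13.1 and 12.7 scaled TPM at 20 h. It rose without the 10 libraries (1.06 ± 0.17, adjusted p = 0.00148) and had an adjusted p of 0.0862 in the 45-library fit, with a range of 0.00148 to 0.6 over 23 settings. The exception to the separation was Cdc25c, the phosphatase that switches Cdk1 on, with 19.4, 12.1 and 14.8 scaled TPM at 44 h, against 18.6, 8.62 and 10.7 scaled TPM at 20 h.

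**Figure D2:**
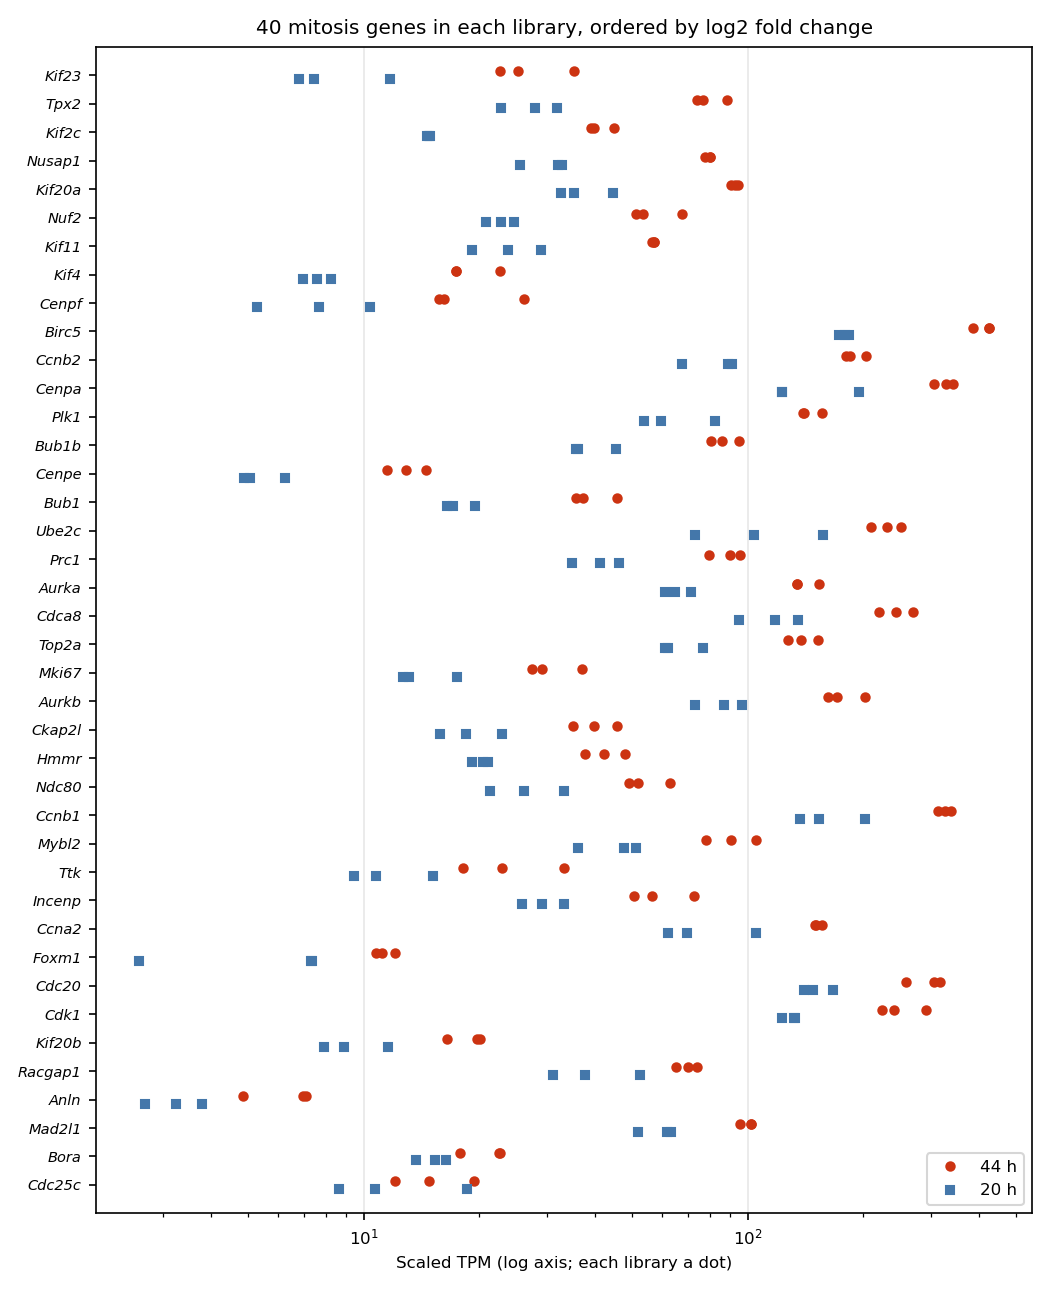
Scaled TPM (x axis, log scale) of the 40 mitosis genes in each of the 3 libraries at 44 h (red circles) and 20 h (blue squares), ordered by log2 fold change with the largest at the top. In 39 of the 40 genes the red circles all lie to the right of the blue squares, and in Cdc25c at the bottom they overlap.

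Genes of DNA replication and nucleotide supply were also higher at 44 h, by less. Of 39 tested, 33 lay above and 0 below without overlap, beside 10.4% and 10.3% of all genes. The list had a median log2 fold change of 0.55 (0.58 to 0.61 under the other scalings). Their summed level was 5720, 5790 and 6030 scaled TPM at 44 h, against 3900, 3830 and 4370 scaled TPM at 20 h. None was called by limma in the 45-library fit, where 15 had an unadjusted p below 0.05, and 3 were called without the 10 libraries. The 3 were Rfc5, a clamp loader subunit, at 197, 209 and 216 scaled TPM at 44 h, against 95.6, 92 and 138 scaled TPM at 20 h (0.95 ± 0.23, adjusted p = 0.0423 in that fit, 0.0312 to 1 over 23 settings), Lig1 and Mcm7. Lig1, which joins the pieces of the lagging strand, had 138, 120 and 128 scaled TPM at 44 h, against 57.3, 69.9 and 79 scaled TPM at 20 h (0.9 ± 0.22, adjusted p = 0.0419 in that fit, 0.0419 to 1 over 23 settings). Mcm7, a subunit of the replicative helicase, had 217, 223 and 233 scaled TPM at 44 h, against 141, 163 and 148 scaled TPM at 20 h (0.57 ± 0.14, adjusted p = 0.0494 in that fit, 0.0482 to 1 over 23 settings). A few members were close or overlapping between the times. Cdt1, which loads the helicase, had 37, 48.3 and 39.7 scaled TPM at 44 h, against 34.9, 51.3 and 46.8 scaled TPM at 20 h. Pcna, the sliding clamp, had 545, 508 and 517 scaled TPM at 44 h, against 449, 371 and 406 scaled TPM at 20 h (0.36 ± 0.2, adjusted p = 1 in the 45-library fit).

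Around the cycle, Dnmt1, the enzyme that copies DNA methylation onto new strands, had 72.1, 81.4 and 81.5 scaled TPM at 44 h, against 38.4, 47.4 and 49.2 scaled TPM at 20 h. Dnmt1 rose without the 10 libraries (0.79 ± 0.17, adjusted p = 0.0178 there, 0.0178 to 1 over 23 settings). H2afx, a histone variant of the DNA damage response, had 307, 257 and 271 scaled TPM at 44 h, against 161, 139 and 125 scaled TPM at 20 h. H2afx was the 1 of 28 histone genes called in that fit (0.97 ± 0.19, adjusted p = 0.00729, and 0.00729 to 1 over 23 settings). Canonical histone transcripts mostly lack poly(A) tails, so their level in a poly(A) library is no measure of their abundance. G1 cyclins and E2F factors were mixed, with 6 of 20 above and 4 below without overlap, beside 10.4% and 10.3% of all genes. Limma called 0 of these in either fit, 3 having an unadjusted p below 0.05. Cell cycle inhibitors showed 4 above and 4 below of 25, beside the same shares of all genes. Limma called 0 of the inhibitors in either fit, with 0 at an unadjusted p below 0.05. Cdkn1b, the inhibitor p27, had 4.42, 4.04 and 3.82 scaled TPM at 44 h, against 7.46, 5.12 and 5.16 scaled TPM at 20 h, without overlap and without a call (-0.43 ± 1.31, adjusted p = 1). Of the 111 genes called higher without the 10 libraries, those with large changes outside these lists included Arhgap19, Ticam2, Cdkn3 and Zwilch. Zwilch, a kinetochore checkpoint protein, had 25.7, 26.5 and 24.3 scaled TPM at 44 h, against 8.6, 10.6 and 7.58 scaled TPM at 20 h (1.43 ± 0.3, adjusted p = 0.0153 in that fit, 0.0153 to 1 over 23 settings). Arhgap19, a GTPase-activating protein for RhoA, had 21.6, 20.2 and 22.9 scaled TPM at 44 h, against 6.04, 5.36 and 7.5 scaled TPM at 20 h (1.64 ± 0.25, adjusted p = 0.000955 in that fit, 0.000546 to 0.777 over 23 settings). Both rose by that fit, with the 44 h libraries far above those at 20 h. Ticam2, an adaptor of Toll-like receptor 4, had 19.6, 24.1 and 24.1 scaled TPM at 44 h, against 8.34, 6.77 and 7.64 scaled TPM at 20 h. Ticam2 rose in that fit as well (1.46 ± 0.19, adjusted p = 0.000236, and 0.0521 in the 45-library fit).

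The ER ran the other way. Of 36 tested genes of protein folding, translocation and the unfolded protein response, 21 lay below at 44 h without overlap and 0 above, beside the 10.3% and 10.4% of all genes, with a median log2 fold change of -0.28 (-0.24 to -0.3 under the other scalings). Under 2 of the scalings, TPM as deposited and the authors' log2 values, 1 member lay above. The summed level was 7520, 7500 and 7760 scaled TPM at 44 h, against 10400, 9440 and 10100 scaled TPM at 20 h. Limma called 0 of the 36 in the 45-library fit, where 3 had an unadjusted p below 0.05, and 3 lower without the 10 libraries, namely Creld2, Manf and Sdf2l1. Creld2, an ER stress-induced disulfide isomerase, had 89.8, 93.9 and 96.2 scaled TPM at 44 h, against 197, 196 and 261 scaled TPM at 20 h. It just missed the call in the 45-library fit (adjusted p = 0.0501) and fell in the fit without the 10 libraries by 1.2 (SE 0.19, adjusted p = 0.00115, 0.00115 to 0.568 over 23 settings, called in 12). Manf, a secreted ER stress protein, had 295, 261 and 291 scaled TPM at 44 h, against 480, 420 and 487 scaled TPM at 20 h. In that fit Manf fell by 0.71 (SE 0.13, adjusted p = 0.00281, called in 9 of 23 settings). Sdf2l1, a partner of BiP, had 272, 270 and 280 scaled TPM at 44 h, against 395, 390 and 391 scaled TPM at 20 h. In that fit Sdf2l1 fell by 0.52 (SE 0.12, adjusted p = 0.0345, called in 3 of 23 settings).

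Hspa5 and Xbp1 passed in neither of these fits. Hspa5 had 1010, 985 and 1060 scaled TPM at 44 h, against 1440, 1340 and 1450 scaled TPM at 20 h (-0.46 ± 0.45, adjusted p = 1). Xbp1, the transcription factor that widens the ER, had 163, 164 and 172 scaled TPM at 44 h, against 274, 267 and 299 scaled TPM at 20 h (-0.75 ± 0.62, adjusted p = 1). Both had groups without overlap, and both passed in the 6 libraries alone, with an adjusted p of 0.0477 for Hspa5 and 0.0269 for Xbp1, whose range over 23 settings was 0.0269 to 1. The translocation channel differed less, with Sec61a1 at 156, 167 and 184 scaled TPM at 44 h, against 188, 167 and 192 scaled TPM at 20 h.

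**Figure D3:**
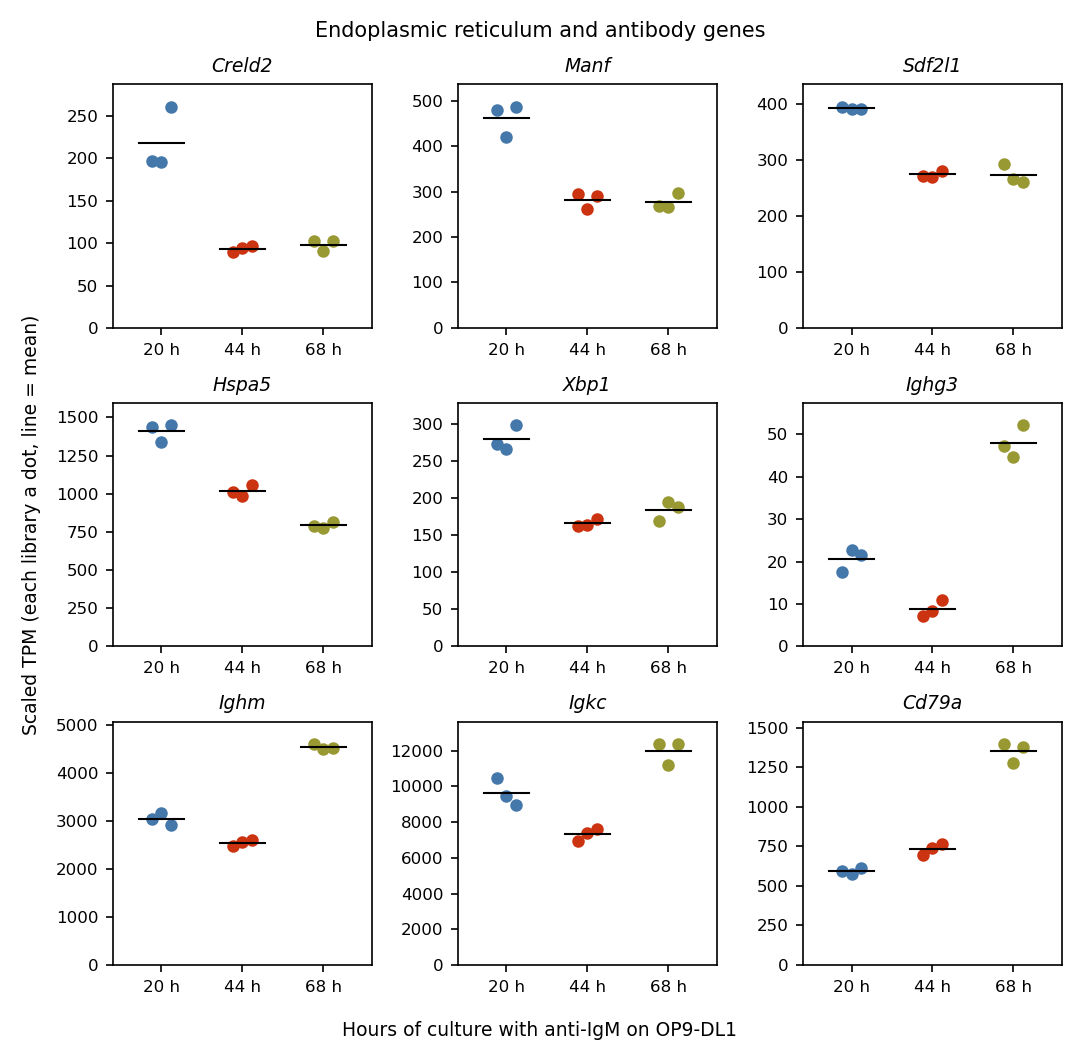
Scaled TPM (y axis, linear from 0) of 5 ER genes, 3 antibody constant region genes and the receptor subunit gene Cd79a in each library of anti-IgM cultures on OP9-DL1 at 20, 44 and 68 h (x axis), with lines at the mean of 3. Creld2 lies at 89.8 to 96.2 at 44 h against 196 to 261 at 20 h and stays there at 68 h, while Ighg3, Ighm and Igkc lie lowest at 44 h and highest at 68 h.

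Among the genes listed for plasma cells and antibody constant regions, J chain had the largest change on this log2 scale. Bhlha15, described above and also called lower, is outside these lists. Of 25 plasma cell genes 6 lay below and 4 above without overlap, beside 10.3% and 10.4% of all genes. Igj was the 1 called, in the 45-library fit (0.0576% of all genes called) and without the 10 libraries (1.04%). Prdm1, which encodes Blimp1, had 1.4, 0.688 and 0.737 scaled TPM at 44 h, against 1.26, 2.94 and 1.96 scaled TPM at 20 h, and Irf4 had 23.5, 21.1 and 21.9 scaled TPM at 44 h, against 29.9, 30.7 and 23.1 scaled TPM at 20 h. Both overlapped between the times. Tnfrsf17, the survival receptor BCMA of plasma cells, was at 0 in all 3 libraries at 44 h, against 1.35, 0.178 and 0.141 scaled TPM at 20 h. Sdc1, the plasma cell surface proteoglycan CD138, ran the other way with 17.2, 13.6 and 15.8 scaled TPM at 44 h, against 13.1, 11.4 and 13.3 scaled TPM at 20 h, without a call (0.28 ± 0.59, adjusted p = 1). Of 10 tested antibody constant region genes 6 lay below without overlap and 0 above, none called in the 45-library fit, where 3 had an unadjusted p below 0.05, and 2 lower without the 10 libraries. Ighg2b had 4.09, 3.37 and 4.32 scaled TPM at 44 h, against 18.4, 11.4 and 13.7 scaled TPM at 20 h. In that fit Ighg2b fell by 1.63 (SE 0.36, adjusted p = 0.0212, 0.0212 to 0.573 over 22 settings). Ighg3 had 7.12, 8.31 and 11 scaled TPM at 44 h, against 17.6, 22.7 and 21.6 scaled TPM at 20 h. In that fit Ighg3 fell by 1.15 (SE 0.26, adjusted p = 0.0256, 0.0119 to 1 over 22 settings). The constant regions share sequence, so reads may be split between them. Ighm, the heavy chain of the crosslinked receptor, had 2490, 2570 and 2600 scaled TPM at 44 h, against 3040, 3170 and 2920 scaled TPM at 20 h, without overlap and without a call (-0.25 ± 0.44, adjusted p = 1).

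Of 29 immediate early genes 12 lay below at 44 h and 1 above without overlap, beside 10.3% and 10.4% of all genes, with a median log2 fold change of -0.38 (-0.36 to -0.54 under the other scalings). Limma called 0 of them in the 45-library fit, where 3 had an unadjusted p below 0.05, and Dusp5 alone without the 10 libraries. Dusp5, a nuclear phosphatase that turns ERK off, had 0.72, 0.519 and 1.75 scaled TPM at 44 h, against 7.79, 5.15 and 5.08 scaled TPM at 20 h. In that fit Dusp5 fell by 1.84 (SE 0.42, adjusted p = 0.0249, 0.0249 to 0.741 over 23 settings). Nr4a1, the receptor-induced nuclear factor Nur77, had 111, 130 and 109 scaled TPM at 44 h, against 140, 195 and 228 scaled TPM at 20 h, and Egr1 had 45.8, 51 and 39.9 scaled TPM at 44 h, against 81.4, 72.7 and 53.8 scaled TPM at 20 h. Neither overlapped and neither was called. Jun, a partner of Fos in AP-1, was the member that lay above, with 7.74, 5.79 and 5.06 scaled TPM at 44 h, against 1.94, 2.98 and 2.52 scaled TPM at 20 h (1.04 ± 0.72, adjusted p = 1). Myc, the growth regulator that the receptor induces, had 165, 159 and 171 scaled TPM at 44 h, against 223, 255 and 221 scaled TPM at 20 h, without overlap and without a call (-0.49 ± 0.38, adjusted p = 1, 0.0675 to 1 over 23 settings). Ribosome biogenesis genes, many of them Myc targets, lay below in 11 of 34 and above in 1, beside 10.3% and 10.4% of all genes, with a median of -0.17. The count below was 5 with TPM as deposited, 8 after quantile normalization and 10 with the authors' log2 values. Of these genes limma called 0 in either fit, none having an unadjusted p below 0.05.

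Notch target levels, set against the ligand on the stroma, did not pass the test in the 45-library fit. Of 11 tested targets 4 lay below and 1 above without overlap, beside 10.3% and 10.4% of all genes. Limma called 0 of them in either fit, and 0 had an unadjusted p below 0.05. Dtx1, a Notch-induced ubiquitin ligase, had 33.9, 42.1 and 47.8 scaled TPM at 44 h, against 49.5, 72.1 and 69.7 scaled TPM at 20 h (-0.61 ± 0.58, adjusted p = 1). Hes1, a Notch-induced repressor, had 2.23, 1.18 and 2.92 scaled TPM at 44 h, against 4.06, 14.6 and 15.4 scaled TPM at 20 h (-1.85 ± 1.13, adjusted p = 1, and 0.0524 without the 10 libraries, 0.0121 to 1 over 23 settings). For Hes1 the 20 h replicate 1 lay near the 44 h libraries and well below its own group. Hes5 had 11, 6.48 and 13.2 scaled TPM at 44 h, against 6.14, 9.72 and 10.5 scaled TPM at 20 h, with overlap, and Nrarp was below 1 scaled TPM in all 6 libraries. Notch2, the receptor of splenic B cells, had 1.91, 1.91 and 2.19 scaled TPM at 44 h, against 2.73, 3.41 and 3.37 scaled TPM at 20 h, without overlap and without a call. Dll1, the ligand carried by the stroma, had 22.7, 5.26 and 8.2 scaled TPM at 44 h, against 38.1, 5.44 and 11.9 scaled TPM at 20 h. The stromal markers were highest in the same replicate 1 of each time, and their part in the Notch target levels was not tested.

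Of 20 B cell surface genes 13 lay above at 44 h and 2 below without overlap, beside 10.4% and 10.3% of all genes, with a median log2 fold change of 0.33, and of 35 receptor signalling genes 14 lay above and 4 below, with a median of 0.21. The counts below were 0 or 1 for surface genes and 1 or 2 for signalling genes under the other scalings. Limma called 0 in either list in either fit, and an unadjusted p below 0.05 was found for 2 surface genes, both higher, and for 1 signalling gene, which was lower. Cd79a, a signalling subunit of the receptor, had 698, 738 and 765 scaled TPM at 44 h, against 595, 576 and 614 scaled TPM at 20 h (0.3 ± 0.48, adjusted p = 1). Vpreb3, an ER protein that binds immunoglobulin chains, had the largest gap of the surface list, with 4.69, 4.6 and 6.28 scaled TPM at 44 h, against 0.794, 1.51 and 1.69 scaled TPM at 20 h (1.42 ± 0.53, adjusted p = 0.64). Cd74, the invariant chain of MHC class II and by far the most abundant member, ran against the list with 6300, 7000 and 6610 scaled TPM at 44 h, against 7670, 9250 and 8820 scaled TPM at 20 h. It set the list's summed level, which was 11300 to 12400 scaled TPM at 44 h and 12800 to 14000 scaled TPM at 20 h, opposite in direction to the median. Pax5, the B lineage factor, had 12, 8.41 and 12.8 scaled TPM at 44 h, against 5.61, 6.5 and 7.99 scaled TPM at 20 h, without overlap (0.64 ± 0.41, adjusted p = 1). Bach2 and Bcl6, repressors that hold back plasma cell fate, overlapped between the times.

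Ligands and costimulators held a few separate changes. Of 21 chemokine and cytokine genes 4 lay above and 5 below without overlap, beside 10.4% and 10.3% of all genes. None was called by limma in the 45-library fit, where 6 had an unadjusted p below 0.05. Without the 10 libraries 3 were called higher. Ccl22, a chemokine that draws CCR4-bearing T cells, had 5.54, 4.84 and 5.66 scaled TPM at 44 h, against 0.678, 0.665 and 0.688 scaled TPM at 20 h. It rose in that fit (1.92 ± 0.32, adjusted p = 0.00156) and had an adjusted p of 0.0662 in the 45-library fit (0.000809 to 0.673 over 23 settings). Tnfsf9, the ligand of 4-1BB, had 18.8, 16.2 and 19.7 scaled TPM at 44 h, against 4.47, 8.3 and 7.95 scaled TPM at 20 h. Tnfsf9 rose in that fit (1.32 ± 0.28, adjusted p = 0.0161, 0.0161 to 1 over 23 settings). Ebi3, a subunit of interleukins 27 and 35, had 37.2, 37.9 and 42.4 scaled TPM at 44 h, against 16.8, 16.4 and 17.6 scaled TPM at 20 h. Ebi3 rose in that fit (1.16 ± 0.26, adjusted p = 0.0199, 0.0199 to 1 over 23 settings). Among activation and costimulation genes 12 of 25 lay above and 2 below, beside the same shares of all genes, with Tnfsf9 the 1 called in that fit. Cd1d1, which presents lipids to NKT cells, had 16.9, 24.8 and 21.7 scaled TPM at 44 h, against 5.58, 9.16 and 10 scaled TPM at 20 h. Cd1d1 rose in that fit (1.28 ± 0.23, adjusted p = 0.00281, 0.00281 to 0.864 over 23 settings). Of 20 inhibitory receptor genes 7 lay above and 3 below without overlap, beside the same shares of all genes, with a median log2 fold change of 0.24. In that fit 0 were called higher and 2 lower. Lilrb4 of this list had 1.94, 1.6 and 1.05 scaled TPM at 44 h, against 9.27, 6.42 and 4.51 scaled TPM at 20 h. In that fit Lilrb4 fell by 1.58 (SE 0.36, adjusted p = 0.0249, 0.0226 to 1 over 23 settings).

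**Figure D4:**
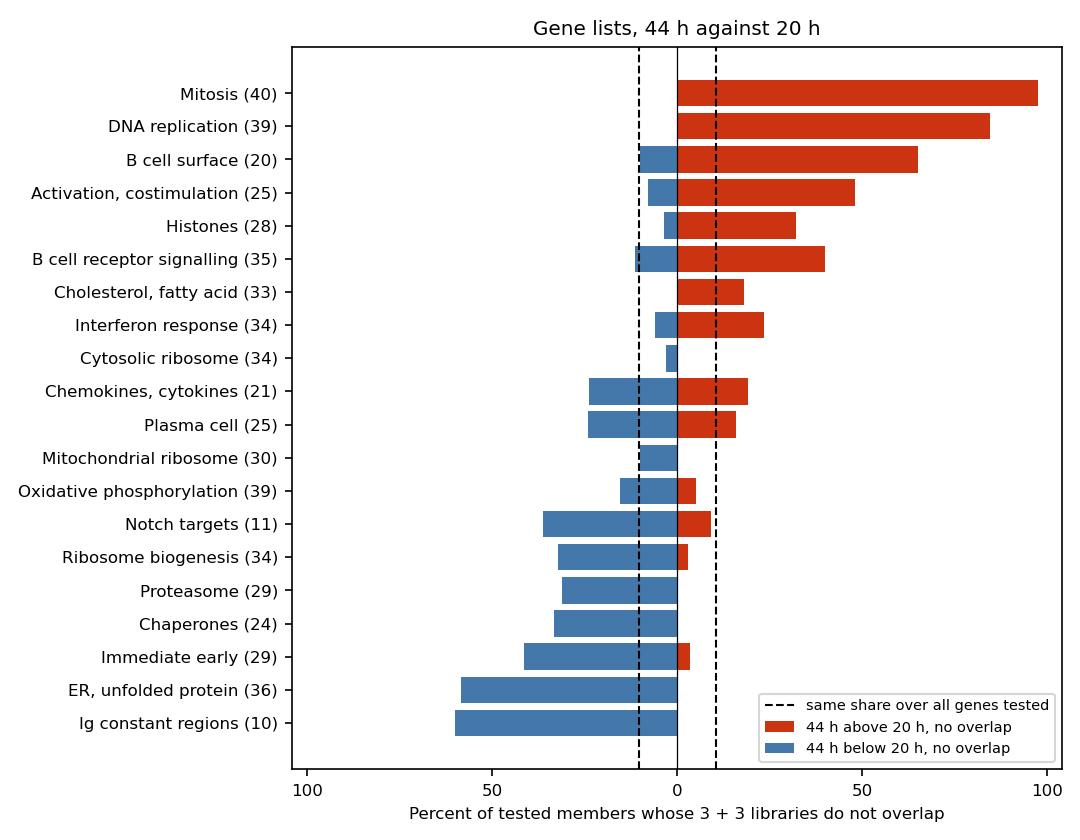
Percent of tested members (x axis) of 20 gene lists whose 3 libraries at 44 h all lay above (red, to the right) or all below (blue, to the left) the 3 at 20 h, with the number tested in brackets. Dashed lines mark the same shares over all 15614 genes, 10.4% above and 10.3% below, and mitosis (39 of 40), DNA replication (33 of 39) and B cell surface genes (13 of 20) reach farthest to the right, with antibody constant region genes (6 of 10) and ER genes (21 of 36) farthest to the left.

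Several large decreases without the 10 libraries rested unevenly on the 20 h replicates. Lamp1, a lysosomal membrane protein, had 12.1, 10.2 and 14.3 scaled TPM at 44 h, against 29.4, 136 and 172 scaled TPM at 20 h. In that fit Lamp1 fell by 2.78 (SE 0.64, adjusted p = 0.0269, 0.00603 to 0.556 over 23 settings). Clptm1l had 15.7, 15 and 19.7 scaled TPM at 44 h, against 30.2, 114 and 149 scaled TPM at 20 h. In that fit Clptm1l fell by 2.2 (SE 0.54, adjusted p = 0.0455, 0.00764 to 0.777 over 23 settings). In both, the 20 h replicate 1 stood closer to the 44 h libraries than to the other 20 h libraries. The next 4 were more even across the replicates. Sdc4, a heparan sulfate proteoglycan, had 6.49, 4.07 and 6.01 scaled TPM at 44 h, against 28.2, 24.7 and 38.8 scaled TPM at 20 h. In that fit Sdc4 fell by 2.27 (SE 0.45, adjusted p = 0.00729, and 1 in the 45-library fit). Pim1, a survival kinase induced by cytokines, had 4.56, 5.55 and 5.09 scaled TPM at 44 h, against 17.5, 15.8 and 19.1 scaled TPM at 20 h. In that fit Pim1 fell by 1.6 (SE 0.34, adjusted p = 0.0161, and 1 in the 45-library fit). Sod1, the cytosolic superoxide dismutase, had 134, 105 and 120 scaled TPM at 44 h, against 316, 323 and 353 scaled TPM at 20 h. In that fit Sod1 fell by 1.46 (SE 0.36, adjusted p = 0.0446, and 1 in the 45-library fit). Kdm6b, a demethylase of histone H3 lysine 27, had 2.4, 3.84 and 2.27 scaled TPM at 44 h, against 5.99, 6.63 and 7.51 scaled TPM at 20 h. In that fit Kdm6b fell by 1.02 (SE 0.24, adjusted p = 0.0296, and 1 in the 45-library fit).

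The 68 h cultures show where these levels stood 1 interval later. Mitosis genes summed to 2170, 1850 and 2100 scaled TPM at 20 h, 4460, 4170 and 4310 scaled TPM at 44 h, and 4380, 4390 and 4410 scaled TPM at 68 h, and their median log2 fold change for 68 h against 44 h was 0. Kif2c stayed at 42, 42.3 and 41.5 scaled TPM at 68 h (0.03 ± 0.23 against 44 h). Of the 40, 7 lay above and 7 below at 68 h without overlap. Replication genes summed to 3900, 3830 and 4370 scaled TPM at 20 h, 5720, 5790 and 6030 scaled TPM at 44 h, and 4440, 4330 and 4550 scaled TPM at 68 h, highest at 44 h. Their median for 68 h against 44 h was -0.42, with 26 of 39 below without overlap, where 13.3% of all genes lay below and 14.7% above. The ER sums at 44 and 68 h overlapped, at 10400, 9440 and 10100 scaled TPM at 20 h, 7520, 7500 and 7760 scaled TPM at 44 h, and 7490, 7190 and 7680 scaled TPM at 68 h. Ribosome biogenesis genes lay below at 68 h in 32 of 34, with a median of -0.74. Limma called 0 of these genes for 68 h against 44 h in the fit of all libraries. Without the 10 libraries it called 21 lower, beside 1.55% of all genes.

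Some antibody genes that were lowest at 44 h were higher at 68 h. For 68 h against 44 h limma called 28 of 15614 genes (0.179%), 20 higher (0.128%) and 8 lower (0.0512%). Without the 10 libraries it called 537 (3.44%), 295 higher (1.89%) and 242 lower (1.55%). Leaving out any 1 of the 6 libraries lowered the count of 28, to between 4 and 17. Igj had 95.5, 77.8 and 111 scaled TPM at 68 h and rose by 2.71 ± 0.5 (adjusted p = 0.01), still below all 3 libraries at 20 h. Ighg3 had 47.2, 44.6 and 52.2 scaled TPM at 68 h and rose by 2.34 ± 0.43 (adjusted p = 0.01). B cell surface genes lay above in 18 of 20 at 68 h, beside 14.7% of all genes, with a median log2 fold change of 0.77. Limma called 0 of the 20 in the 45-library fit. Without the 10 libraries it called 2 higher, beside 1.89% of all genes. Cd79b, the other signalling subunit, had 445, 398 and 385 scaled TPM at 20 h, 525, 523 and 528 scaled TPM at 44 h, and 1180, 1180 and 1130 scaled TPM at 68 h. It rose at 68 h without the 10 libraries (adjusted p = 0.0287) and missed in the 45-library fit (1.14 ± 0.36, adjusted p = 0.246). Myc had 84.4, 92.3 and 88.4 scaled TPM at 68 h, and fell in that interval without the 10 libraries (adjusted p = 0.00836, and 0.554 in the 45-library fit). Both intervals use the 44 h libraries, so a gene that was low in those 3 libraries lies lower in the first and higher in the second.

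**Figure D5:**
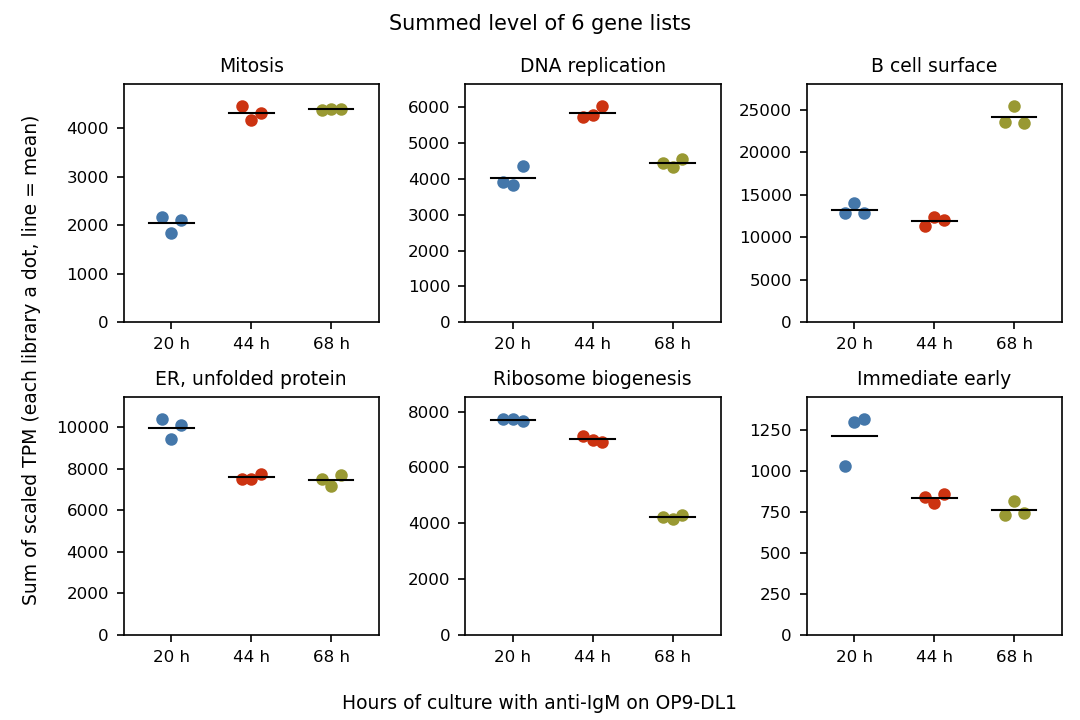
Sum of scaled TPM (y axis, linear from 0) over the members of 6 gene lists in each library of anti-IgM cultures on OP9-DL1 at 20, 44 and 68 h (x axis), with lines at the mean of 3. Mitosis is at 4170 to 4460 at 44 h and 4380 to 4410 at 68 h, replication is highest at 44 h, and the B cell surface sum, set by Cd74, is 23400 to 25400 at 68 h against 11300 to 12400 at 44 h.

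The same interval in cultures with LPS on OP9 differed in a few genes. The test of the difference of the changes called 12 of 15614 genes (0.0769%), 7 with a more positive change with anti-IgM on OP9-DL1 (0.0448%) and 5 with a more negative one (0.032%). Without the 10 libraries it called 187 (1.2%), 89 more positive (0.57%) and 98 more negative (0.628%). Leaving out single LPS libraries at 20 h raised the count of 12, to 78 without replicate 2 and 31 without replicate 3. These LPS libraries at 20 h were uneven in some lists. Cytosolic ribosome genes summed to 53700, 28100 and 110000 scaled TPM, while immediate early genes summed to 602, 590 and 616 scaled TPM. The part of this spread in the count was not tested. The count was 6 or 7 without 44 h replicate 2 or 20 h replicate 1 or 2 with anti-IgM on OP9-DL1, or 44 h replicate 1 or 2 with LPS on OP9. Fdps, an enzyme of the cholesterol pathway, had 182, 196 and 206 scaled TPM at 44 h and 212, 203 and 211 scaled TPM at 20 h with anti-IgM on OP9-DL1. It had 755, 698 and 736 scaled TPM at 44 h and 211, 256 and 326 scaled TPM at 20 h with LPS on OP9. The changes differed by -1.59 ± 0.32 (adjusted p = 0.0313). Cdkn1a, the inhibitor p21, had 13.1, 6.82 and 11.6 scaled TPM at 44 h and 10.6, 7.46 and 6.88 scaled TPM at 20 h with anti-IgM on OP9-DL1. It had 30.2, 30.8 and 28 scaled TPM at 44 h and 224, 230 and 597 scaled TPM at 20 h with LPS on OP9. The changes differed by 3.64 ± 0.65 (adjusted p = 0.00783). Mitosis genes were higher at 44 h in both cultures, at 4460, 4170 and 4310 against 2170, 1850 and 2100 scaled TPM with anti-IgM on OP9-DL1 and at 4890, 4520 and 4960 against 1910, 1620 and 2370 scaled TPM with LPS on OP9. The median difference of their log2 changes was -0.49. Igj was lower at 44 h with LPS on OP9 too, at 2.89, 1.22 and 2.94 scaled TPM against 32.6, 12.6 and 16.7 scaled TPM at 20 h. Stimulus and stroma both differ between these cultures and cannot be told apart.

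Against anti-IgM on OP9 without the ligand, the 3 libraries at 20 h on OP9 were all among the 10 with high Actb, so no value without them could be had. The test called 6 of 15614 genes (0.0384%), all with a more negative change on OP9-DL1, while 2954 had an unadjusted p below 0.05. The count was 452 without OP9 20 h replicate 2, and 1 to 3 without 44 h replicate 2, 20 h replicate 1 or 20 h replicate 3 on OP9-DL1 or 44 h replicate 1 or 3 on OP9. Racgap1, a cytokinesis protein, had 65, 69.8 and 74 scaled TPM at 44 h and 52.3, 31.2 and 37.8 scaled TPM at 20 h on OP9-DL1. It had 75.1, 61.4 and 75.5 scaled TPM at 44 h and 13.3, 11.3 and 6.77 scaled TPM at 20 h on OP9. The changes differed by -1.88 ± 0.36 (adjusted p = 0.0287). At 44 h the 2 stromas overlapped for Racgap1, and at 20 h they did not. Igj had 6.08, 4.38 and 2.51 scaled TPM at 44 h and 16, 18 and 14.1 scaled TPM at 20 h on OP9, each lower than at the same time on OP9-DL1. The part of the high Actb libraries in these differences was not tested.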

How the data were processed

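Bulk poly(A) RNA of sorted B cells (SMART-seq HT cDNA, per the labels' protocols) was quantified with kallisto and normalised with limma on GRCm38/mm10, per the submitters' processing notes, which give no versions here. The authors deposited TPM for 30317 genes in 45 libraries (3070000 to 29100000 reads) and a second table of normalised log2 values, used to solve depths and as an alternative. TPM hold no counts, so no count test was run and no interval for counting error is given. TPM were divided by median-ratio size factors (0.442 to 1.43), and genes with at least 1 TPM in at least 3 libraries (15614) were tested in limma 3.58.1 (R 4.3.3) on log2(scaled TPM + 1), all 15 groups of 3 in 1 fit, with trended robust variances and Benjamini-Hochberg adjustment at 0.05. An exact permutation test of 3 against 3 libraries cannot go below p = 0.1, so none is given. The same fit without the 10 libraries above 5000 TPM of Actb, a fit of the 6 libraries alone, other scalings, pseudocounts and filters, and leaving out each library are alternatives. A gene is said to rise or fall only where one of the named fits called it, and its SE comes from that fit.

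The members, gene lists and tests were chosen with earlier results of these data known. Genes named were 18 chosen by name, the 10 largest called changes in each direction (a mean of 10 scaled TPM or more in a group and no overlap), up to 4 called members of each list, and the 3 largest called differences of changes in each direction that met the same level, leaving out V, D and J segments and unnamed gene models. Since the 45-library fit called few, the same rule was also applied to the fit without the 10 libraries, after the values were seen. Other list members were named to describe roles after their values were seen. Genes of near-identical families (antibody constant regions, Prl2c3) are uncertain. Promoters are RefSeq's (GRCm38.p6). The motif of the ER stress element was added after the values were seen, and replication promoters are not reported because under 80% matched. The labels do not say whether replicate numbers pair the libraries, and no pairing was used. Some genes that meet these rules are not reported here.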

Additional observations from a re-analysis of the deposited data

Results flagged for a closer look

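In 8 of the genes named by rule the change from 20 to 44 h differed between anti-IgM on OP9-DL1 and another culture by limma's test of the difference itself. Values are scaled TPM of 3 libraries and differences are of log2 changes. Against LPS on OP9, Cdkn1a (3.64 ± 0.65, adjusted p = 0.00783) and Fdps (-1.59 ± 0.32, adjusted p = 0.0313) have their levels in the report.

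Sirpa, the inhibitory receptor for CD47, had 20.6, 36.5 and 31.9 at 44 h and 11.6, 11.1 and 13.8 at 20 h with anti-IgM on OP9-DL1, and 0.233, 0.321 and 0.612 at 44 h and 5.39, 3.63 and 1.12 at 20 h with LPS on OP9 (difference 2.71 ± 0.53, adjusted p = 0.0272). Cdh17, a cadherin, had 1.64, 4.26 and 2.29 at 44 h and 4.53, 2.47 and 4.14 at 20 h with anti-IgM on OP9-DL1, and 29.6, 26.3 and 35.2 at 44 h and 3.37, 6.38 and 0.12 at 20 h with LPS on OP9 (difference -3.61 ± 0.65, adjusted p = 0.00847). Prl2c3, a proliferin with near-identical copies that makes its level uncertain, was listed at 0 in all 3 libraries at 44 h and at 0, 0 and 0.209 at 20 h with anti-IgM on OP9-DL1, and at 0 in all 3 at 44 h and at 21.7, 2.12 and 15.7 at 20 h with LPS on OP9 (difference 3.31 ± 0.56, adjusted p = 0.00495).

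Against anti-IgM on OP9, where every 20 h library has high Actb, Racgap1 differed by -1.88 ± 0.36 (adjusted p = 0.0287). Lynx1, a modulator of nicotinic receptors, had 9.64, 13.2 and 12.6 at 44 h and 11.6, 9.48 and 7.59 at 20 h on OP9-DL1, and 30.5, 18.8 and 23.6 at 44 h and 2.46, 3.33 and 1.93 at 20 h on OP9 (difference -2.53 ± 0.44, adjusted p = 0.0116). Socs3, a cytokine-induced brake on JAK kinases, had 4.87, 6.51 and 5.76 at 44 h and 16.6, 12.9 and 7.6 at 20 h on OP9-DL1, and 19.2, 20 and 22.5 at 44 h and 0.442, 3.4 and 0 at 20 h on OP9 (difference -4.48 ± 0.9, adjusted p = 0.0479).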

How the results depend on the processing

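Counts of called genes are given against 9 for 44 h against 20 h, 28 for 68 h against 44 h, 12 for the difference from LPS on OP9 and 6 for the difference from anti-IgM on OP9. With TPM as deposited they were 5, 14, 7 and 1. With the authors' log2 table they were 1, 0, 7 and 0, where 829 and 3470 genes had an unadjusted p below 0.05 in the 2 counts of 0. A pseudocount of 0.1 gave 2 and 11 in the first pair, no filter gave 6 for LPS, and quantile normalization gave 10 and leaving out immunoglobulin genes 3 for anti-IgM on OP9. The groups compared alone gave 153, 1161, 5 and 1580. Without the 10 libraries of high Actb the first 3 counts were 163, 537 and 187, and the last could not be fitted because no 20 h library on OP9 remained. Leaving out 1 library gave 4 to 9, 4 to 17, 6 to 78 and 1 to 452, and 69, 80, 81, 95, 99 and 145 for 44 h against 20 h when the 10 were also out. The cause of these moves was not tested.

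With the replicate number as a block the counts were 9, 30, 11 and 10, and with the 10 libraries also out they were 142, 496 and 170. Same-numbered libraries at 44 and 20 h had deviations correlated at 0.11, 0.03 and 0.04, and not every number correlated best with itself in each library. Of the values of the 9 called genes under the alternatives other than those combined with leaving out the 10 libraries, 85 stayed called and 57 did not, and none changed sign. Of named genes not called, Hes5 (0.18) turned to -0.02 without 44 h replicate 3 and -0.04 without 20 h replicate 1, and Dll1 (-0.42) to 0.28 without 20 h replicate 1, also when the 10 libraries were out. Over runs without 1 library Hes5 lay between -0.04 and 0.44 and Dll1 between -1.02 and 0.28. A median of 0 hides changes in total RNA per cell, and at 3 libraries a group small changes were not detectable.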

Other observations

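Interferon response genes, which no comparison above describes, lay above at 44 h in 8 and below in 2 of 34 without overlap, beside the 10.4% and 10.3% of all genes, with a median log2 fold change of 0.27. Limma called 0 of them in the 45-library fit and without the 10 libraries of high Actb, and 4 had an unadjusted p below 0.05. Genes of the chaperone list lay below in 8 of 24 and above in none. With TPM as deposited, quantile normalization and the authors' log2 values, 4, 2 and 5 lay below, and 1 above in each. Proteasome subunits lay below in 9 of 29 and above in none, but in 7, 2 and 8 below under the same 3 scalings, with 1 above with TPM as deposited. Each list had a median of -0.11.

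The 20 h replicate 1 stood apart from 20 h replicates 2 and 3 in several genes. Jund, an AP-1 subunit, had 9.93, 7.93 and 23.5 scaled TPM at 44 h, against 42.3, 183 and 148 scaled TPM at 20 h. Gclc, which starts glutathione synthesis, had 12.1, 23.9 and 30.8 scaled TPM at 20 h. That library also had the highest stromal marker sum of the 6, at 712 TPM, and its part in these values was not tested.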
